A study of Mus musculus with 92 samples.

Results

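The clustered protocadherin genes of the mouse lie side by side on chromosome 18 in 3 clusters, alpha, beta and gamma. Members were the protein-coding genes on that chromosome whose symbols start with Pcdha, Pcdhb or Pcdhg, and they numbered 57 of 21883 protein-coding genes, with 14 in the alpha cluster, 22 in the beta cluster and 21 in the gamma cluster. In GRCm38 coordinates the alpha cluster spans chr18:36930285-37188897, the beta cluster chr18:37264998-37521419 and the gamma cluster chr18:37661775-37841873. In mouse cells on the path to the male germline, the study mapped where CTCF, an insulator protein, and the variable STAG subunits of the cohesin ring bind, by chromatin immunoprecipitation and sequencing. Of its data, 30 deposited peak lists were used. STAG1 and STAG2 were read in wild-type ESC (embryonic stem cells), EpiLC (cells like those of the epiblast), d2PGCLC and d4c7PGCLC (2 stages of cells like primordial germ cells, sorted as BV-positive) and GSC (germline stem cells, sorted as AAG-positive). Each of these groups had 2 lists, except 3 for STAG2 in d2PGCLC, d4c7PGCLC and GSC. STAG3 had 3 lists, all from wild-type GSC. CTCF had 1 list, called on pooled replicates, for each of 4 GSC genotypes: Stag3 KO, Stag2Stag3dKO (Stag1-only), Stag1Stag3dKO (Stag2-only) and Stag1Stag2dKO (Stag3-only). All GSC carried the transgenes Acrosin-EGFP and beta-Actin-EGFP (AAG), and all other cells were of the line BDF1-2-1 with the reporters Blimp1-mVenus and Stella-ECFP (BVSC). GSC thus differed from the other cell types in line as well as in state, and the 2 cannot be told apart. CTCF was read in mutant GSC and cohesin in wild-type cells, and CTCF of the other cell types was not analysed here. Peak lists hold no expression values, so the identity of the cells rests on the labels, and a peak in few cells and a weak peak in many cannot be told apart.

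Clustered protocadherins are adhesion proteins of the neuronal surface, and each neuron is known to switch on its own small set of them, which lets a neuron recognise its own branches. In the alpha and gamma clusters each variable exon has its own promoter and is spliced to constant exons at the cluster's end, while beta genes are single-exon genes. Most of the promoters are known to carry a conserved element that CTCF binds, and cohesin and CTCF are known to fold a distant enhancer onto the promoter that is used. The last genes of the alpha and gamma clusters, called C-type, are known to be expressed more uniformly and not by random choice. None of the cells studied here is a neuron.

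The lists held 9641 to 42013 peaks for STAG1, 13698 to 84904 for STAG2, 12832 to 39681 for STAG3 and 39639 to 43877 for CTCF. GSC lists were the shortest for STAG1, at 9641 and 10778 peaks, and for STAG2, at 13698, 25021 and 25979. Sequencing depth is unknown, so a place without a peak is one where no peak was called. The fold enrichment of a peak is the authors' value and is used below only to rank a peak within its own list.

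Peaks of all 30 lists were joined into distinct intervals wherever they shared at least 1 bp, which gave 104 intervals in the 3 clusters. Within the clusters, STAG1 and STAG2 filled the intervals at gene starts most often. In the alpha cluster 15 of 24 intervals lay within 1000 bp of a member's start, in the beta cluster 22 of 37 and in the gamma cluster 22 of 43. Over the beta starts, STAG2 was called in 87.4% of all combinations of interval and list and STAG1 in 53.2%. Over the gamma starts these shares were 71.7% and 55%, and over the alpha starts 70.3% and 45.3%. The 6 intervals between alpha genes and the 14 between gamma genes were filled in 6.41% and 21.4% of combinations for STAG2, and for STAG1 in none of 60 and in 9.29%. Places between genes were mostly empty for both proteins.

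**Figure D1:**
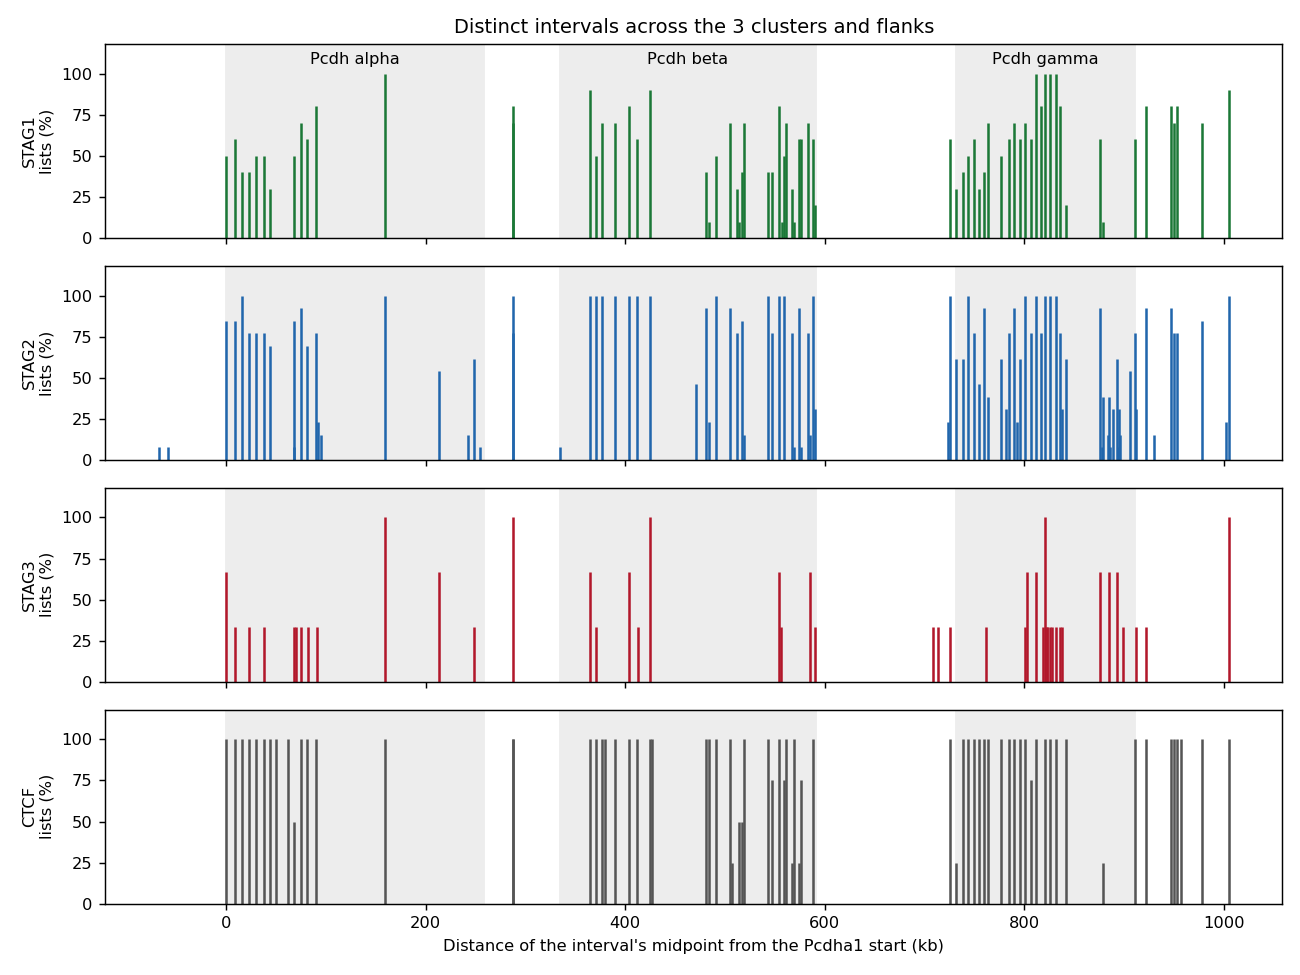
Each line is a distinct interval of the 3 clusters (grey bands) and their flanks of 100 kb, placed by the distance of its midpoint from the Pcdha1 start in kb; its height is the percent of the 10 STAG1, 13 STAG2, 3 STAG3 or 4 CTCF lists with a peak in it. The tall lines of STAG1, STAG2 and CTCF follow the row of gene starts, and those of STAG3 are few.

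CTCF was called at the start of 39 of the 57 members in all 4 GSC genotypes, 12 in the alpha cluster, 13 in the beta cluster and 14 in the gamma cluster, against 15% of all genes. Per list, a CTCF peak stood at 42 member starts in Stag3-only, 41 in Stag2-only, 43 in Stag1-only and 46 in Stag3 KO cells. The list of Stag3 KO was also the longest, with 43877 peaks against 41282, 39639 and 40732 in the order given. With 1 pooled list a genotype there is no replicate error, so no difference between genotypes was tested. At 8 members (4.26% of all genes) CTCF was called in some of the 4 lists. Within their lists these were weak peaks: the median percentile of their fold enrichment was 8.89, from 1.74 to 55.6, against 60.3 at the 39 starts called in every genotype, from 8.88 to 99.7. The following genes were picked after their values were seen, to show all 8. Pcdhb19 and Pcdhb20 had CTCF in Stag3 KO alone, and Pcdhga1 in Stag3-only cells alone. Pcdhb16 and Pcdhb18 lacked a call in Stag3-only cells, and Pcdhga9 lacked one in Stag2-only cells. Pcdha9 was called in Stag1-only and Stag3 KO cells, and Pcdhb14 in Stag3-only and Stag3 KO cells.

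No CTCF peak was called at the start of 10 members, against 80.8% of all genes. They were Pcdhac2, Pcdhb1, Pcdhb9, Pcdhb13, Pcdhb21, Pcdhga10, Pcdhga12, Pcdhgc3, Pcdhgc4 and Pcdhgc5, of which Pcdhb9 and Pcdhb13 fall outside the rule for named genes and were added after their values were seen. All 10 had STAG2 in at least 1 list, as had 52.7% of all gene starts without CTCF. Of these 10, STAG1 was called at 5, against 9.07% of all starts without CTCF. The 5 with STAG2 and no STAG1 in any list were Pcdhac2, Pcdhb1, Pcdhb9, Pcdhgc4 and Pcdhgc5, or 8.77% of members against 38.6% of all genes. These counts pool all 5 cell types, while CTCF was read in GSC alone. In GSC, STAG1 or STAG2 was called at 2 of the 10 (20%), against 24.9% of all starts without CTCF.

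Cohesin stood at nearly every member in some list: 56 of 57 starts had a peak in at least 1 of the 26 STAG lists, against 66.6% of all genes. The exception was Pcdha8, an alpha gene with CTCF in all 4 genotypes and no STAG peak in any list. At the other end, Pcdhac1 and Pcdhgb7 were called in all 26 STAG lists and all 4 CTCF lists. Pcdhac1, the first C-type alpha gene, also had high peaks. Its fold enrichment lay at a median percentile of 92 in the 10 STAG1 lists (65.3 to 97.8), 95.3 in the 13 STAG2 lists (79.8 to 97.3), 99.1 in the 3 STAG3 lists (98.9 to 99.9) and 99.7 in the 4 CTCF lists (99.6 to 99.8). For Pcdhgb7, a variable gamma gene, the medians were 88.4, 85.1, 90.2 and 89.6 in the same order. Pcdhb8 had the most STAG lists among beta genes, 25 of 26, missing from 1 EpiLC STAG1 list. Counting STAG1 and STAG2 alone, 4 members were called in all 23 lists, against 2.05% of all genes: Pcdhac1, Pcdhgb7 and, named after their values were seen, Pcdhgb6 and Pcdhga11. Fewest in the beta cluster was Pcdhb1, its first gene, with 1 STAG2 list in EpiLC, and fewest in the gamma cluster Pcdhgc5, with 4 STAG2 lists.

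**Figure D2:**
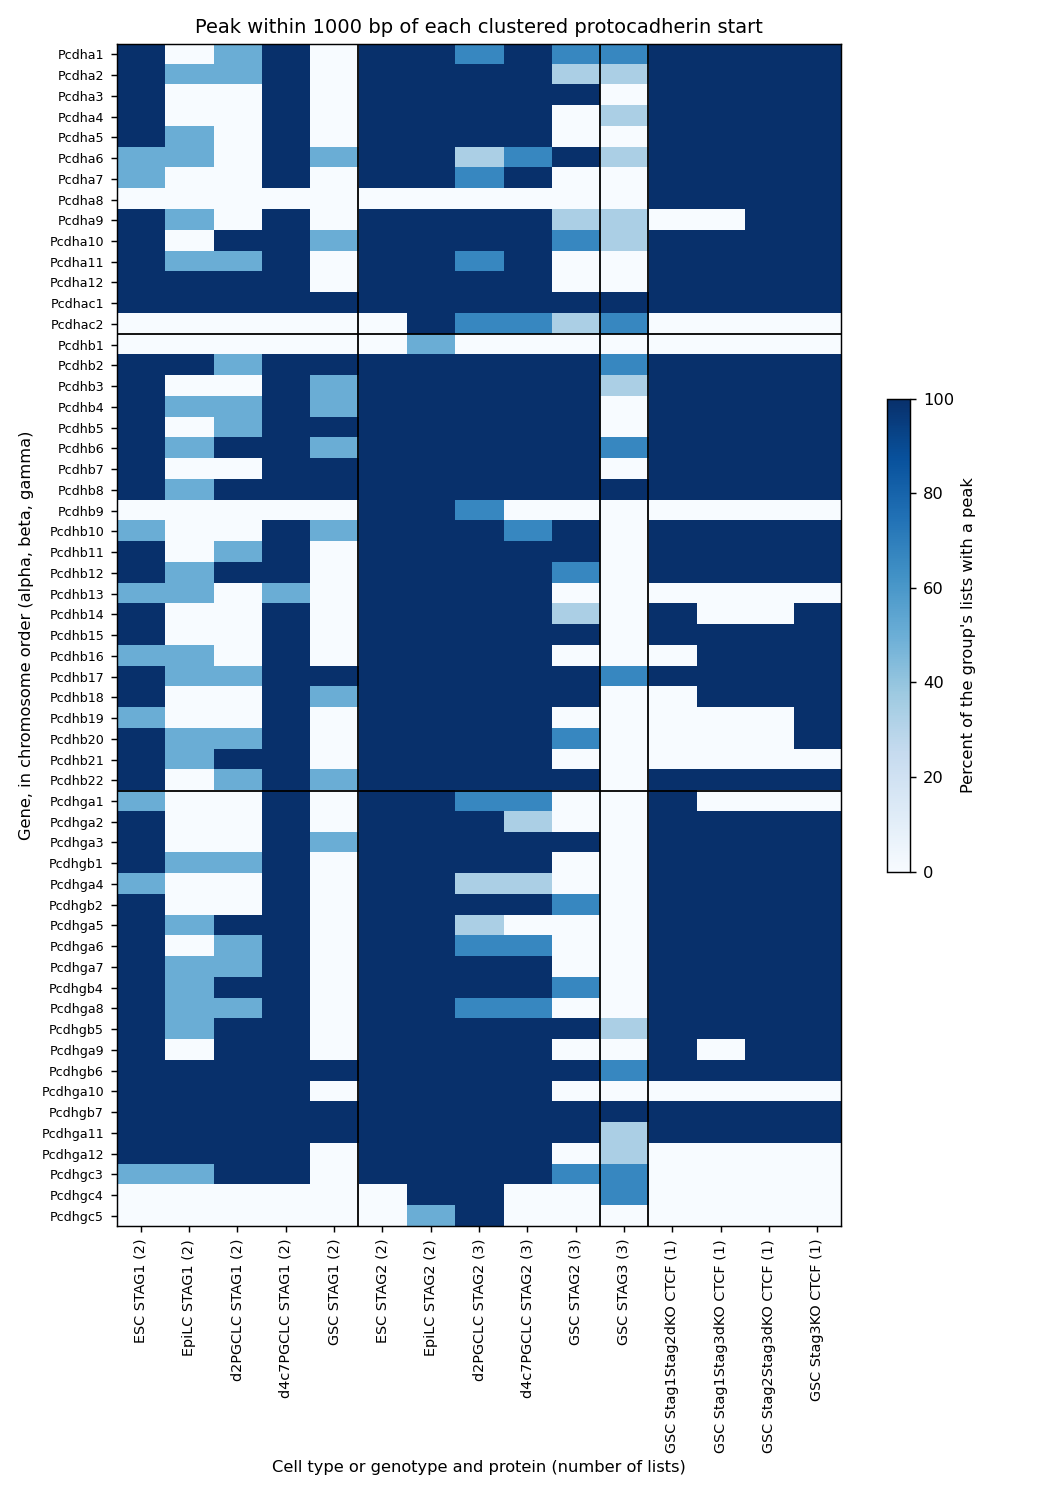
Each row is one of the 57 members in chromosome order and each column a group of lists (number of lists in brackets); the shade is the percent of the group's lists with a peak within 1000 bp of the start. Rows such as Pcdhac1 and Pcdhgb7 are dark throughout, Pcdha8 is dark for CTCF alone, and the columns of GSC STAG1, GSC STAG2 and GSC STAG3 are the lightest beside those of EpiLC and d2PGCLC STAG1.

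The number of member starts with STAG1 moved widely between cell types. It was 50 and 43 in the ESC lists, 12 and 25 in EpiLC, 20 and 28 in d2PGCLC, 50 and 51 in d4c7PGCLC, and 12 and 15 in GSC. ESC and d4c7PGCLC were high and did not overlap with the other 3 cell types. For STAG2 the counts were 52 and 52 in ESC, 55 and 55 in EpiLC, 54, 47 and 50 in d2PGCLC, 51, 44 and 48 in d4c7PGCLC, and 31, 24 and 26 in GSC. The GSC lists were all below every other STAG2 list, and the other 4 cell types lay close together. Over all gene starts the STAG2 ranges overlapped, with 8.22% to 26.1% in GSC and 24.6% to 50.7% in the other cell types. All gene starts moved along with the members in STAG1: 10.5% to 16.1% of them had a peak in the lists of ESC and d4c7PGCLC, 4.8% to 13.1% in EpiLC and d2PGCLC, and 3.94% and 4.54% in GSC. List length moved with these counts too. With each list cut to its 9641 peaks of highest fold enrichment, the length of the shortest, STAG1 stood at 6 and 7 member starts in ESC, 10 and 6 in EpiLC, 5 and 7 in d2PGCLC, 4 and 4 in d4c7PGCLC, and 12 and 12 in GSC. ESC and d4c7PGCLC were then no longer the high groups.

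Within each list, member starts were compared with all gene starts. The members' share was above that of all genes in 10 of 10 STAG1 lists, by 3.74 to 7.19 times, in 13 of 13 STAG2 lists, by 1.75 to 5.12 times, and in 4 of 4 CTCF lists, by 4.38 to 4.61 times. STAG3 went the other way. In its 3 lists 8.77%, 22.8% and 28.1% of member starts had a peak, against 20.6%, 53% and 54% of all gene starts, a ratio of 0.426 to 0.52. Lists of STAG3 were also the sparsest by intervals, with 4.68 to 7.31 cluster intervals per 10000 peaks, below each of the other 27 lists, which ran from 8.33 to 19.

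**Figure D3:**
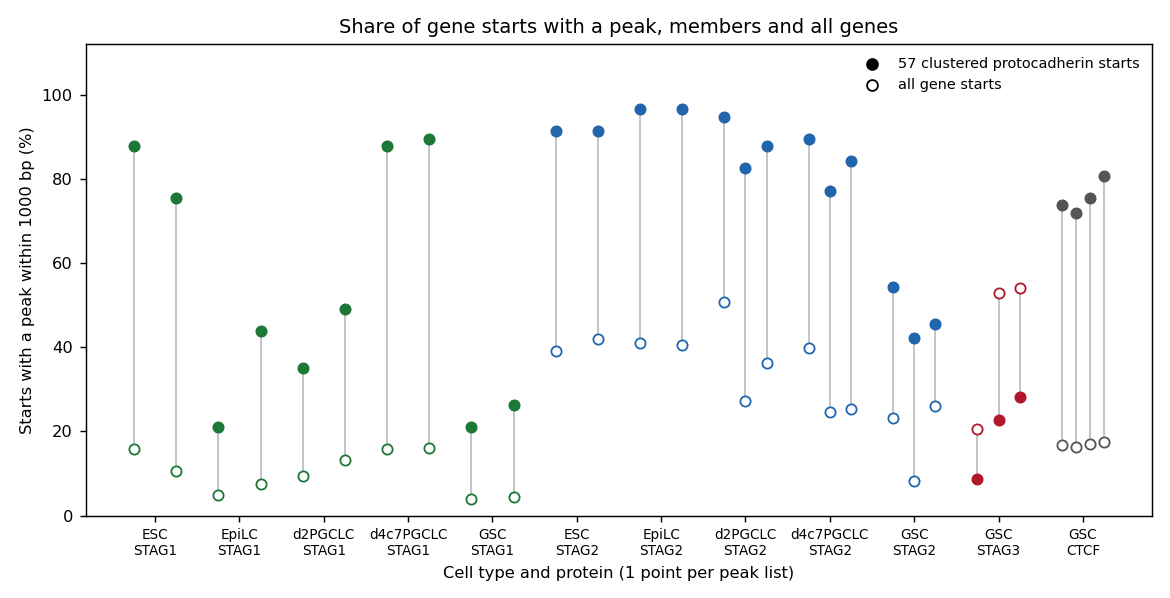
Percent of starts with a peak within 1000 bp, for the 57 members (filled) and all 21883 genes (open); each joined pair is 1 peak list. Filled points lie above open ones in every STAG1, STAG2 and CTCF list and below them in the 3 STAG3 lists.

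STAG2 was called at more member starts than STAG1 in 4 of the 5 cell types without overlap of the lists. The ranges were 52 to 52 against 43 to 50 in ESC, 55 to 55 against 12 to 25 in EpiLC, 47 to 54 against 20 to 28 in d2PGCLC, and 24 to 31 against 12 to 15 in GSC. In d4c7PGCLC the ranges overlapped, with 44 to 51 for STAG2 and 50 to 51 for STAG1. Averaged over cell types, STAG2 lists had 15.8 more member starts than STAG1 lists. All genes moved the same way: the difference between the members' share and that of all genes was 4.19 percentage points larger for STAG2. With all lists cut to their 9641 peaks of highest fold enrichment, the length of the shortest list, STAG2 still had 5.17 more member starts on average, while per 10000 peaks it had fewer cluster intervals than STAG1 (-2.39).

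Gene by gene, an exact permutation test over the 23 lists within cell types, with Benjamini-Hochberg adjustment over all 21883 genes, called STAG2 higher at 6 members, against 15.2% of all genes. It called none of them lower, against 0.00457% of all genes. The 6 make up 10.5% of the members, a share below the background. At an unadjusted p under 0.05 it gave 20 members (35.1%), all higher for STAG2, against 27.5% of all genes. Each of the 6 had STAG2 in 13 of 13 lists. Pcdha3 and Pcdhb15 had STAG1 in 4 of 10 lists, both of ESC and both of d4c7PGCLC (adjusted p = 0.0184 in the exact permutation test). Pcdhb3, Pcdhb11, Pcdhb18 and Pcdhga3 had STAG1 in 5 of 10 lists (adjusted p = 0.0445 in the same exact test). They are variable genes of the alpha, beta and gamma clusters, 4 of them in the beta cluster. The median difference in the share of lists was 30 percentage points over the members and 13.3 over all genes. It was 40 in the beta cluster, where all 22 genes had a difference above 0, and 30 and 20 in the alpha and gamma clusters. The count of 6 fell to 2 to 3 when any 1 of 18 of the 23 lists was left out. It rose to 9 without STAG2 replicate 2 of GSC, and was 2 with the stricter threshold of −log10 q of 5, Pcdha3 and Pcdhb15. In lists of equal length it was 0 of 57, and 39 of all genes were called. At an unadjusted p under 0.05 there were 14 members in those lists (24.6%), against 1.23% of all genes.

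In GSC, cohesin was called at fewer member starts than in the other cell types. STAG2 stood at 24 to 31 starts in the 3 GSC lists against 44 to 55 in the 10 other lists. STAG1 stood at 12 and 15 starts in GSC against 12 to 51 elsewhere, the 12 being EpiLC replicate 1. The mean difference over both proteins was -22.6 starts. In percentage points the fall was larger than over all genes, as the members' share minus that of all genes was lower in GSC by 27.2 (-27.2). In proportion the members and all genes lay close together, which was not tested. For STAG1 the mean share of member starts was 23.7% in GSC and 61.2% elsewhere, a ratio of 0.387, and over all genes 4.24% and 11.6%, a ratio of 0.365. For STAG2 the members had 47.4% and 89.1%, a ratio of 0.531, and all genes 19.2% and 36.6%, a ratio of 0.524. GSC lists were also short, and when each of the 23 lists was cut to its 9641 peaks of highest fold enrichment the direction turned. STAG1 then stood at 12 and 12 member starts in GSC and at 4 to 10 elsewhere, and STAG2 at 13 to 18 in GSC and 7 to 16 elsewhere, a mean difference of 5.19. Fewer called starts in GSC came with fewer called peaks. The cut left the GSC STAG1 lists, of 9641 and 10778 peaks, whole or nearly whole. The other STAG1 lists, of 14720 to 42013 peaks, kept only their strongest peaks. Cut lists thus hold unlike parts of the full lists in GSC and elsewhere. Whether list length accounts for the difference was not tested.

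The same exact permutation test across all genes, within proteins, called 7 members lower in GSC, against 0.937% of all genes, and neither a member nor any other gene higher. None of the 7 had STAG1 or STAG2 in any of the 5 GSC lists. The variable genes Pcdha12, Pcdhga10 and Pcdhga12 were called in each of the 18 lists from outside GSC (adjusted p = 0.0266, exact permutation test). Pcdhb21 was called in 17 of 18 (adjusted p = 0.0378, exact test), and Pcdhgb1, Pcdhga7 and Pcdhga9 in 16 of 18 (adjusted p = 0.0498, exact test). Of the 7, 5 are gamma genes, 1 an alpha gene and 1 a beta gene. The median difference in the share of lists was -42.9 percentage points over the members and 0 over all genes, and by cluster it was -53.3 in alpha, -15.6 in beta and -58.8 in gamma. At an unadjusted p under 0.05, 26 members differed, all of them lower, against 10.7% of all genes. The test reached its threshold only with all 5 GSC lists: without any 1 of them no gene was called, and 21 to 25 members stayed at an unadjusted p under 0.05. The count was 4 when any 1 of 15 other lists was left out, with 135 to 143 of all genes called. It was 3 with a window of 500 bp (5.26%, against 0.196% of all genes) and 12 with one of 2500 bp (21.1%, against 3.51%). In lists of equal length 2 members (3.51%) were called, against 0.484% of all genes. Pcdhga12 was still lower, at 0 of 5 against 18 of 18 lists (adjusted p = 0.0215, exact permutation test). Pcdhb7, a beta gene named after its values were seen, was higher there, at 5 of 5 against 0 of 18 lists (adjusted p = 0.0215, exact permutation test).

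Pcdhga12 had the highest STAG1 peaks of the gamma cluster, all of them outside GSC, at a median percentile of 98.5 in 8 lists (85.4 to 99.6), and lay at 94.2 in 10 STAG2 lists (84 to 99.3). The summit was 401.5 bp after the start for STAG1 and 396.5 bp after it for STAG2, farther in than at any other gamma gene with STAG1. No CTCF list had a peak there, and STAG3 had 1 in 1 of its 3 lists. Pcdhga10, which also lacked CTCF, had its STAG1 peaks at a median percentile of 81 with the summit 15.5 bp after the start. Pcdha12, by contrast, had CTCF in all 4 GSC genotypes.

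CTCF without any cohesin call in GSC was found at 12 members, against 0.937% of all genes. At these starts CTCF was called in all 4 genotypes and no STAG1, STAG2 or STAG3 list of wild-type GSC had a peak. Of the 12, 5 were alpha genes and 7 gamma genes, and none was a beta gene. By the rule for named genes they included Pcdha8, Pcdha12, Pcdhgb1 and Pcdhga7. CTCF in all 4 genotypes was itself found at 68.4% of members and 15% of all genes. Of the starts with it, 12 of 39 members and 205 of 3276 genes in the genome lacked a GSC cohesin call. STAG1 or STAG2 was called in some GSC list at 66.7% of the 39, against 73.6% of the 3276. STAG3 was called in some list at 38.5% of the 39, against 90.5% of the 3276.

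The clusters differed in how much was still called in GSC. STAG2 stood at 63.6% to 72.7% of beta starts in the GSC lists, against 21.4% to 50% of alpha starts and 28.6% to 38.1% of gamma starts. For STAG1 these shares were 31.8% to 40.9%, 7.14% to 21.4% and 14.3% to 19%. Beta was above alpha and gamma in all 5 GSC lists of STAG1 and STAG2, with no overlap of the ranges. The CTCF sites of the clusters also had beta first for STAG2. Of the sites called in all 4 genotypes, 13, 13 and 12 of 19 in the beta cluster had a GSC STAG2 peak, against 6, 3 and 5 of 14 in the alpha cluster and 9, 8 and 6 of 17 in the gamma cluster. Beta starts were also the highest within STAG2 lists: their peaks had a median percentile of fold enrichment of 82.6, against 65.9 in alpha and 61.3 in gamma. For STAG1 the beta and gamma medians were close, at 44.4 and 44, with alpha at 32.3. CTCF showed no such excess in the beta cluster: it was called at 63.6% to 81.8% of beta starts, 66.7% to 76.2% of gamma starts and 85.7% to 92.9% of alpha starts. No test compared the clusters with each other.

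**Figure D4:**
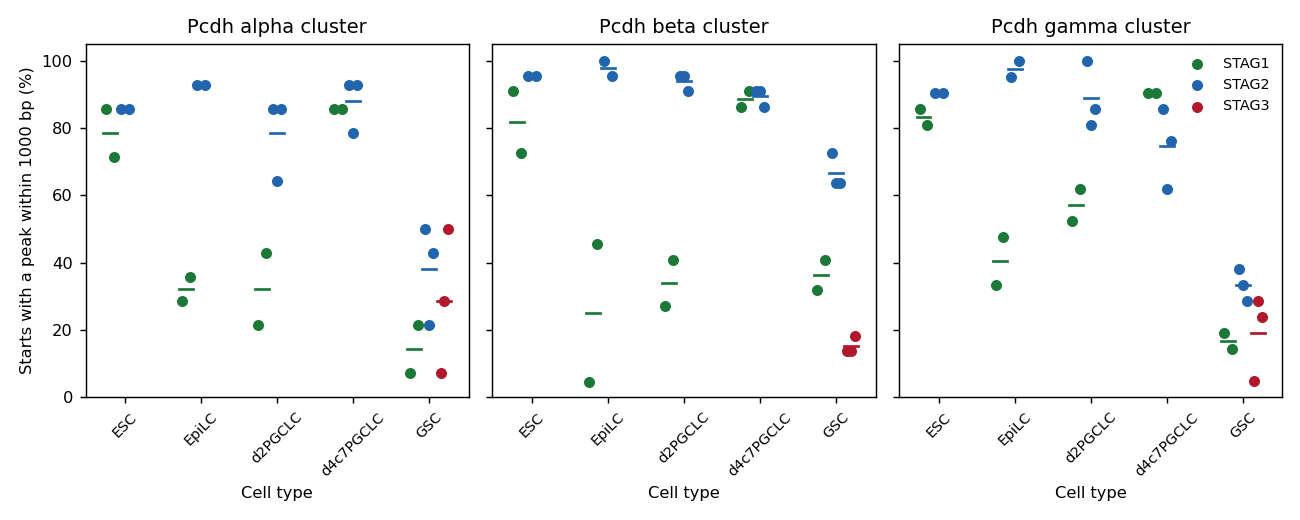
Percent of the starts of each cluster with a peak within 1000 bp, by cell type; each point is 1 peak list and each short bar the mean of its group. In GSC the beta cluster holds its STAG2 points at 63.6% to 72.7%, above those of the alpha and gamma clusters.

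STAG3, read in GSC alone, was called at fewer member starts than GSC STAG2, but not clearly at fewer than GSC STAG1. It stood at 5, 13 and 16 member starts in its 3 lists, all below the 31, 24 and 26 of GSC STAG2 and around the 12 and 15 of GSC STAG1. Its first list was short, with 12832 peaks, but the others were longer than any GSC list of STAG1 or STAG2. In lists cut to 9641 peaks, STAG3 stood at 5, 2 and 3 member starts, STAG1 at 12 and 12 and STAG2 at 17, 18 and 13, so that the ranges no longer overlapped. All genes went the other way there, with 13.7% to 14.4% of starts for STAG3 and 3.78% to 4.61% for STAG1 and STAG2. Peak names show that the STAG3 lists came from another working directory than the other STAG lists, so a separate calling run and the antibody cannot be told apart.

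STAG3 was called at few of the members that carried CTCF. Of the 39 members with CTCF in all 4 genotypes, 15 (38.5%) had STAG3 in at least 1 list, against 90.5% of the 3276 such genes. STAG1 and STAG2, over all cell types, were each called at 97.4% of these members, against 86.8% and 96.4% of such genes. Of the 50 shared CTCF sites within the clusters, 10%, 16% and 28% had a STAG3 peak, against 19.6%, 39% and 40% of the 36623 such sites in the genome. GSC STAG2 covered 56%, 48% and 46% of the 50 sites, against 44%, 31.8% and 43% in the genome. STAG3 was called in all 3 lists at Pcdhac1, Pcdhb8 and Pcdhgb7, which is 5.26% of members against 19.7% of all genes. No STAG3 list had a peak at 37 members, 64.9% against 41.3% of all genes.

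The 5 C-type genes differed from the other 52 members in their pooled shares of calls, but were not alike among themselves. CTCF was called in 4 of 20 combinations of C-type start and list (20%) against 80.8% at the other starts, and all 4 were at Pcdhac1. STAG1 was called in 32% against 55.8%, and STAG2 in 63.1% against 81.1%. Of the 16 STAG1 calls at C-type starts, 10 were at Pcdhac1. STAG3 had the reverse order, with 60% (9 of 15) at C-type starts and 16% (25 of 156) at the others. Over all gene starts the lists had 16.2% to 17.5% for CTCF and 3.94% to 16.1% for STAG1. For STAG2 they had 8.22% to 50.7%, and for STAG3 20.6% to 54%. Pcdhac1 gave 3 of the 9 STAG3 calls, Pcdhac2, Pcdhgc3 and Pcdhgc4 gave 2 each, and Pcdhgc5 none. Pcdhgc3 had STAG1 in 6 lists and STAG2 in 12, with the STAG2 calls in every cell type. Pcdhac2 had STAG2 in 7 lists and no STAG1, with no call in ESC. Pcdhgc4 had STAG2 in both EpiLC lists and all 3 d2PGCLC lists and nowhere else. Pcdhgc5 had it in 1 EpiLC list and all 3 d2PGCLC lists. These shares are a description over few starts, and no test compared them.

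Behind the last gamma start, 7 intervals lay on the way to the cluster's end. STAG2 was called in 71.4% of their combinations with d2PGCLC lists, 50% in EpiLC, 42.9% in ESC, 14.3% in d4c7PGCLC and 4.76% in GSC. STAG1 was called in 1 of the 7, the last (chr18:37840706-37841808), which was also the only one with CTCF, in all 4 genotypes, and had STAG1 in 6 and STAG2 in 10 lists. The longest of the others, chr18:37835399-37836876, had STAG2 in 7 lists and no other protein. Behind the last alpha start 3 intervals had STAG2 in 28.2% of combinations and STAG1 and CTCF in none. The best filled of them, chr18:37178258-37179030, had STAG2 in 8 lists and STAG3 in 1.

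Clustered protocadherin genes are read toward higher coordinates, so positions after the start lie in the gene. The summits of CTCF and cohesin were offset from each other at the starts. In the beta cluster the median CTCF summit lay before the gene start at all 18 genes with CTCF, at a median of -70.2 bp (-218 to -6), and in the gamma cluster at all 16, at -88.2 bp (-132.5 to -50.5). Cohesin summits lay closer to the start or just inside the gene. The median over genes was 32.5 bp for STAG1 and 31.5 bp for STAG2 in the beta cluster, and 6.5 and 7.5 bp in the gamma cluster. Gene by gene, the STAG1 summit lay on the gene's side of the CTCF summit at all 18 beta and all 16 gamma genes, by a median of 92.2 and 97.8 bp. For STAG2 it did so at all 18 and all 16 as well, by 96.8 and 90.8 bp. In these medians STAG1 and STAG2 thus lay downstream of CTCF at each of these promoters. The STAG1 and STAG2 medians pool wild-type lists of 5 cell types, while the CTCF medians come from mutant GSC. Some of these starts, such as those of Pcdhgb1 and Pcdhga7, had no STAG1 or STAG2 call in GSC. STAG3 lay on the gene's side of CTCF at 4 of 5 beta and 4 of 4 gamma genes with both proteins.

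The alpha cluster departed from this order. There the CTCF summit lay before the start at 7 genes and after it at 6, from -245.5 to 571 bp. The 6 were Pcdha1, Pcdha4, Pcdha5, Pcdha6, Pcdha7 and Pcdha8, all among the first 8 genes of the cluster, of which those other than Pcdha8 were named after their values were seen. Cohesin summits of the alpha genes stayed near the start, from -115 to 66 bp for STAG1 and from -113 to 234 bp for STAG2. At 7 of the 12 alpha genes with all 3 proteins STAG1 lay on the gene's side of CTCF, and at the other 5 before it. CTCF peaks at alpha starts were also wider, with list medians of 591 to 660 bp against 417.5 to 488 bp in beta and 380 to 425 bp in gamma. In each CTCF list 1 to 3 alpha starts had 2 or more CTCF peaks, while no beta or gamma start had. Only the summit nearest the start was taken in each list. A CTCF summit after the start thus does not show that none lay before it.

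**Figure D5:**
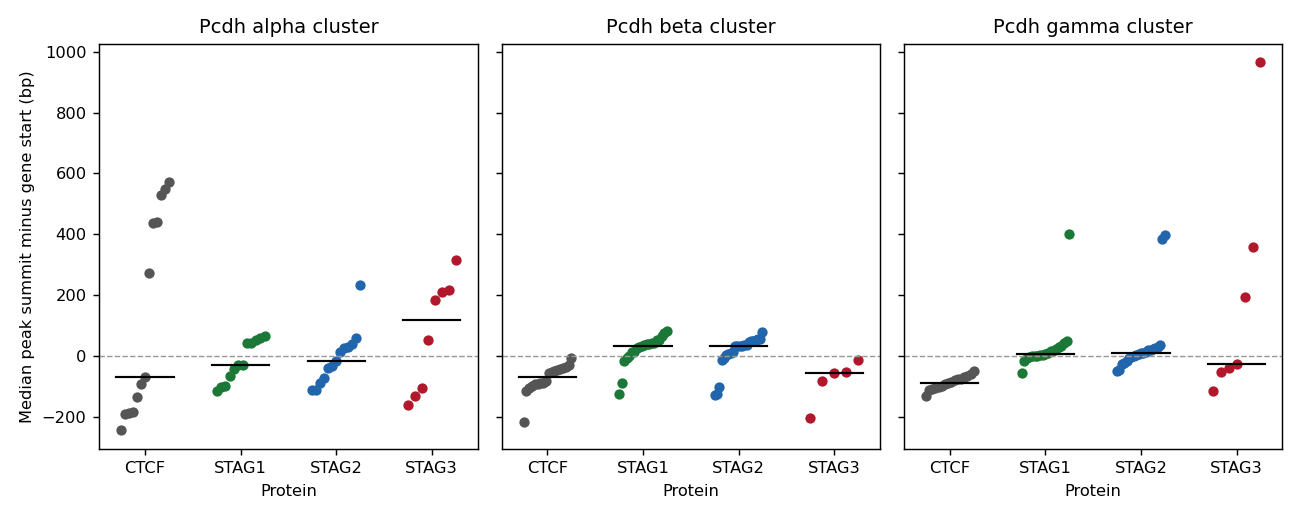
Distance of the peak summit from the gene start in bp, negative before the start; each point is the median over lists for 1 gene and each bar the median over genes. CTCF points lie below 0 at all beta and gamma genes and fall into groups below and above 0 in the alpha cluster.

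Inside the beta genes lay further CTCF peaks. Of 15 intervals in beta gene bodies, 9 had CTCF in at least 1 genotype and 6 in all 4. STAG1 was called in 17.3% of their combinations with lists and STAG2 in 6.67%, the reverse of the order at beta starts. In GSC neither STAG1 nor STAG2 was called in any of them. The 3 intervals with the most STAG1 lists were picked after their values were seen. The one in Pcdhb14, chr18:37449672-37450237, had STAG1 in 7 lists, STAG2 in 2 and CTCF in 4. The one in Pcdhb18, chr18:37491433-37492006, had STAG1 in 7 lists, STAG2 in none and CTCF in 4. The one in Pcdhb20, chr18:37506287-37506748, had STAG1 in 6 lists, STAG2 in 1 and CTCF in 3. Their midpoints lay 2254 to 2298 bp after the start. CTCF alone was called at 4 intervals, among them chr18:37309477-37309827 in Pcdhb4 and chr18:37357126-37357450 in Pcdhb8, both in all 4 genotypes. In a test added after the data were seen, across all 136329 intervals of the genome with STAG1 or STAG2, exact permutation called STAG2 and STAG1 different at none of the 86 in the clusters, against 1.04% higher and 0.0117% lower for STAG2 in all, with 27 of the 86 (31.4%) at an unadjusted p under 0.05, against 14.5% in all. It called 16 of the 86 (18.6%) lower in GSC, against 10.4%, and none higher, against 0.38%.

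Between and behind the clusters stood intervals with all or most proteins. The gap between alpha and beta held 2, chr18:37217016-37217856 and chr18:37217938-37218799, both with CTCF in 4 genotypes. The first had STAG1 in 7, STAG2 in 10 and STAG3 in no list, and the second had STAG1 in 8, STAG2 in 13 and STAG3 in 3. Just before the gamma cluster, chr18:37655349-37656036 had STAG1 in 6, STAG2 in 13, STAG3 in 1 and CTCF in 4 lists. Within the gamma cluster the start of Pcdhgb8 lay in chr18:37761330-37762177, with STAG1 in 10, STAG2 in 13, STAG3 in 1 and CTCF in 4 lists. Pcdhgb8 was not among the protein-coding genes of the annotation used, and so was no member. In the 100 kb behind the gamma cluster, which hold most of the gene Diaph1, a regulator of the actin skeleton, 7 of 10 intervals had CTCF in all 4 genotypes. There STAG1 was called in 60% of combinations in ESC, d2PGCLC and d4c7PGCLC, 50% in EpiLC and 5% in GSC. The last of them, chr18:37935030-37936027, had STAG1 in 9, STAG2 in 13, STAG3 in 3 and CTCF in 4 lists. Distant enhancers are known behind the alpha and the gamma cluster, but the files name none, and no interval is assigned to one here.

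Cluster peaks often lay at CTCF sites shared by the 4 GSC genotypes. This held for 65.6% to 100% of cluster peaks in STAG1 lists, 55.8% to 92.3% in STAG2 lists and 38.1% to 83.3% in STAG3 lists. Whole STAG2 lists had 37.9% to 85.2%, below their own cluster value in 13 of 13 lists. Whole STAG1 lists had 69.2% to 98.9%, below it in 5 of 10. The share was lower for STAG2 than for STAG1 by 11.4 percentage points over cell types (-11.4), and by 4.25 (-4.25) in lists of equal length.

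Lists of 12 and 16 other genes were set beside the members. Of 12 non-clustered protocadherins, adhesion genes that stand alone in the genome, 2 had CTCF at the start in all 4 genotypes, Pcdh1 and Pcdh7. Their median was 0 STAG1 and 3 STAG2 lists, against 6 and 11 over the members. STAG2 was called higher than STAG1 at 3 of them, Pcdh8, Pcdh18 and Pcdh20, and GSC lower at 1, Pcdh7, with 0 of 5 GSC lists and 18 of 18 others (adjusted p = 0.0266, exact permutation test). Of 16 genes for cohesin subunits, CTCF and other regulators of the clusters, 3 had CTCF in all 4 genotypes, Ctcf itself, Smc3 and Stag2, which encode the insulator protein and 2 cohesin subunits. The median was 0 STAG1 and 5 STAG2 lists. STAG2 was called higher at 3, Smchd1 and Setdb1, which act in silencing, and Rest, a repressor of neuronal genes, and none was called different in GSC. Of all genes, 15% had CTCF in all 4 genotypes, 15.2% were called higher for STAG2 and 0.937% lower in GSC. The counts in these short lists were not tested against those shares.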

How the data were processed

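The series holds 92 samples, of which the 30 peak lists were analysed. Per the submitters' processing notes, the tools were MACS2, deepTools 3.5.0, bedtools 2.29.2, SAMtools 1.7, Bowtie2 2.3.4.1, cutadapt 1.9.1 and Trim Galore 0.4.1, and the builds GRCm38.p3 and mm10; what each did is not stated there. The deposited lists give each peak a fold enrichment (a linear ratio), −log10 of a p-value and of a q-value, and a score. The authors' lists held only peaks with −log10 q above 2. STAG lists were called per library and CTCF lists on pooled replicates, per the peak names in the deposited files. Depth is unknown, so no counting interval is given. The labels name no separate cultures, and the p-values thus cover the spread between lists, which may be technical.

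Gene positions are those of RefSeq for GRCm38.p6. A start was the lower coordinate for members, and for other genes the 5′ end where a strand was given (17491 genes) and otherwise either end (4335), with 1000 bp to each side. Per gene, the share of lists with a peak was compared exactly over relabellings within cell type or protein, with adjustment over all 21883 genes; this was tested on simulated data. Counts over the members carry no p, and permutation tests of them only sorted the alternatives. Members, gene lists and rules were chosen with earlier results of these data known. Named genes were those with the most and fewest STAG lists per cluster, C-type genes and members called across all genes. Alternatives were the window, the summit, a −log10 q of 5, lists of equal length, rates per 10000 peaks, CTCF overlap, the replicate block and leaving out each list. No sequence is printed. Python 3.11.15, numpy 2.4.6, scipy 1.17.1, pandas 2.3.3 and matplotlib 3.10.9 were used.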

Additional observations from a re-analysis of the deposited data

Results flagged for a closer look

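Where most cell types had more STAG2 than STAG1 in the clusters, d4c7PGCLC had less, in 3 measures in which every list of one protein lay beyond every list of the other. In the beta cluster the 3 STAG2 lists had at most 20 distinct intervals in d4c7PGCLC, against 22 and 24 for STAG1, while STAG2 was above STAG1 without overlap in EpiLC, d2PGCLC and GSC. Gamma intervals in d4c7PGCLC numbered at most 21 for STAG2 and 22 in both STAG1 lists, while STAG2 was above in ESC, EpiLC, d2PGCLC and GSC. Gamma starts with a peak numbered at most 18 for STAG2 and 19 in both STAG1 lists of d4c7PGCLC, again with STAG2 above in the other 4 cell types. Over all gene starts STAG2 was above STAG1 in d4c7PGCLC as well, at 24.6% to 39.8% against 15.8% and 16.1%. List lengths overlapped in d4c7PGCLC, where STAG1 had 38491 and 42013 peaks and STAG2 53988, 35799 and 37236. In the other 4 cell types every STAG2 list was longer than every STAG1 list. With lists cut to 9641 peaks, d4c7PGCLC had 12, 11 and 14 member starts for STAG2 and 4 and 4 for STAG1. Whether list length accounts for the order in d4c7PGCLC was not tested. The differences between cell types were not tested.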

How the results depend on the processing

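The comparisons between cell types changed direction with list length. In lists cut to equal length GSC had 5.32 more cluster intervals and 5.19 more member starts than other cell types, and per 10000 peaks 2.5 more cluster intervals, where the values as deposited were -28.4 and -22.6. Cutting by fold enrichment also selects the strongest peaks. With the stricter q (-28.1 and -22.8) and relative to all gene starts (-27.2 percentage points) GSC stayed lower. Per 10000 peaks STAG2 had fewer cluster intervals than STAG1 (-2.39, against 20 as deposited). Relative to all gene starts, an alternative chosen after seeing the data, STAG2 exceeded STAG1 by 4.19 percentage points. This was no longer past the threshold of 0.05 that sorted the alternatives in the permutation tests over lists. By the same measure STAG3 fell short of STAG1 and STAG2 in GSC by 47.3 points (-47.3). That value and lists of equal length (-11.1 starts) passed the threshold that -10.3 starts as deposited did not. Both only reached the smallest p that the 56 relabellings of these lists allow. The share of cluster peaks at shared CTCF sites differed by -4.25 points in lists of equal length, no longer past the threshold. Members called for STAG2 against STAG1 numbered 2 with the stricter q and 0 in lists of equal length. Members called for GSC numbered 3 and 12 with windows of 500 and 2500 bp, 4 with the summit inside the window and 2 in lists of equal length. Cluster intervals called across all intervals, a test chosen after seeing the data, numbered 2 for STAG2 and 8 for GSC in lists of equal length, 7 of the 8 higher in GSC, against 0 and 16, all 16 lower, as deposited; over all intervals 384 and 4753 were called in lists of equal length, against 1436 and 14740. Leaving out each list in turn gave 2 to 9 and 0 to 8 called members. The other results kept their direction and their side of the threshold in all of these leave-one-out settings, from 18.4 to 21.6 and -30.1 to -27.1 cluster intervals, 14.5 to 17.1 and -24.2 to -21.4 starts, -12.7 to -7.1 starts for STAG3 and -13.1 to -9.77 points.

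The replicate block for STAG2 against STAG1 paired lists of one number within a cell type and left out lists without a partner. The differences were then 20.5 intervals, 15.9 starts and -11.3 points. For GSC the block was the number within a protein, with -28.3 intervals and -22.6 starts. For STAG3 it was the number alone, with -11 starts. All these differences stayed on their side of the threshold. The gene test with the block called 0 members and 0 of all genes in both comparisons, with 5 and 26 members at an unadjusted p under 0.05. The labels do not say whether same-numbered lists shared a culture, and this was not tested. The correlation of their deviations from group means over all gene starts was above 0.1 in 0 of 10 pairs (-0.0186 to 0.0446). The pairs are not independent, as both pairs of ESC, and both of EpiLC, have the same value by construction. Unknown depth limits every count of places without a peak.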
